A study of Homo sapiens with 4 samples.

Results

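In a human renal carcinoma line, 10 genes of the NF-kB system were followed, chosen by symbol from a table of 57820 genes. They included the subunit genes RELA, RELB, NFKB1 and NFKB2, the inhibitor gene NFKBIA and its relative NFKBIZ. The others were the feedback genes TNFAIP3 and BIRC3, and the inducible genes TNFAIP2 and ICAM1. All 10 were found, once each, and all 10 had a mean of at least 1 TPM (transcripts per 1000000, a level corrected for transcript length) over the 4 libraries, the minimum for a test. BIRC3 averaged 0.79 TPM in the controls, so it met that minimum through the other group. In total 12524 genes were tested.

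NF-kB proteins are dimers of Rel-family subunits that are held in the cytoplasm by IkB proteins until an upstream kinase complex marks the inhibitor for destruction. The dimers then enter the nucleus and raise the transcription of inflammatory and survival genes, among them the genes of their own inhibitors, which forms a negative feedback loop. In the canonical branch RELA pairs with p50, the product of NFKB1. In the alternative branch RELB pairs with p52, the product of NFKB2.

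The cells were 786-0, an established renal carcinoma line, kept in DMEM with 10% fetal bovine serum, and every library came from cells deprived of amino acids for 12 h. The study compared 2 hairpin groups, each with 2 libraries. One carried the non-targeting hairpin shNT (condition Control) and the other the hairpin shGLUD1 (condition GLUD1 knockdown) against the mitochondrial glutamate dehydrogenase gene. The sources used here give no fed cells, and they do not say whether replicates were separate cultures. The p-values therefore reflect library-to-library spread that may be technical only. Read depth is unknown from TPM. In bulk RNA, fewer expressing cells and less RNA per cell cannot be told apart. The labels name 1 line, and no clone or vector.

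GLUD1 itself measured 18.09 and 17.43 TPM (shNT) against 13.52 and 19.82 TPM (shGLUD1), so the library labelled shGLUD1 replicate 2 stood above both controls. Its log2 fold change was -0.11 on TPM (limma adjusted p = 0.631), and it fell after the rescaling described below (-0.83, limma adjusted p = 0.00233). The groups below are therefore the libraries labelled shNT and shGLUD1, and each direction is drawn from those labels. Of 12 markers listed for renal carcinoma, 9 averaged at least 1 TPM, with PAX8 at 8.07 and 8.75 TPM (shNT) against 5.18 and 7.48 TPM (shGLUD1), whereas KRT19 did not exceed 0.13 TPM and CDH6 and VCAM1 did not exceed 0.01 TPM. The list summed to 1048.37 to 1084.45 TPM in shNT and 3116.54 to 3987.07 TPM in shGLUD1, mostly VIM (930.9 and 890.77 TPM against 2901.83 and 3755.83 TPM), while NNMT measured 65.48 and 62.27 TPM (shNT) against 39.03 and 34.87 TPM (shGLUD1). Among 7 leukocyte markers CD68 averaged above 1 TPM and PTPRC did not exceed 0.01 TPM. The listed leukocyte genes summed to 147.3 to 160.66 TPM in shNT and 208.91 to 242.17 TPM in shGLUD1, nearly all of it CD68. The 3 endothelial markers found summed to at most 0.41 TPM. The 5 fibroblast markers summed to 28.38 to 29.59 TPM in shNT and 62.72 to 64.49 TPM in shGLUD1. Most of that was COL1A2 (19.03 and 15.97 TPM against 45.91 and 49.23 TPM). COL1A1 and DCN also lay higher in both shGLUD1 libraries, while LUM and PDGFRA overlapped between groups. The part of these genes in the results below was not tested.

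Promoter sequence is shown first because feedback in this system runs through the kB site, the short DNA element that Rel dimers bind. RefSeq promoter windows on GRCh38.p14, from 250 bases before to 50 bases after an annotated start, were found for 9 of the 10 genes (all but RELB). They were searched on both strands for the NF-kB consensus decamer and for the shorter strings GGACTTTCC and GGAANTTCC, which overlap the decamer where they occur within it. GGAANTTCC reads the same on both strands. The decamer was found in a window of 6 of the 9 genes (NFKB1, NFKB2, NFKBIA, NFKBIZ, TNFAIP3 and BIRC3). Over all 27305 genes with a window, 13.3% had it, and 11.3% of the 35116 windows. GGAANTTCC was found for 4 of the 9 genes (1.16% of all genes) and GGACTTTCC for 3 of the 9 (0.45% of all genes). These are textbook NF-kB-regulated genes, so their matches are no independent finding, and a match is not evidence of binding in these cells. Matches are printed in capitals, 5′ to 3′ on the gene's own strand. Where an annotated exon of a longer transcript overlaps, only a site of at most 30 bases is given.
NFKBIA, chr14:35404791-35404999, minus strand: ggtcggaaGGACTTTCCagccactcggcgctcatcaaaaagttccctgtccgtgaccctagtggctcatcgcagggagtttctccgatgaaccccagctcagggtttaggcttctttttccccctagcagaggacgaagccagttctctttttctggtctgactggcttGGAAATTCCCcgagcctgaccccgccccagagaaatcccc
BIRC3, chr11:102317255-102317388, plus strand: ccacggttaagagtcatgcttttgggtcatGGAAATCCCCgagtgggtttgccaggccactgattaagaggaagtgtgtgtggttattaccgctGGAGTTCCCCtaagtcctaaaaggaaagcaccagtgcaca
TNFAIP3, chr6:137867188-137867217, plus strand: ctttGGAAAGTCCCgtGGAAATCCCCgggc
NFKB1, chr4:102501300-102501329, plus strand: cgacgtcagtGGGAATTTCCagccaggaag
NFKB2, chr10:102395674-102395703, plus strand: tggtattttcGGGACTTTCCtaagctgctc
NFKBIZ, chr3:101827740-101827806, plus strand: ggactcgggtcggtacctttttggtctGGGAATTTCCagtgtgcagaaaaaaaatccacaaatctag
ICAM1, chr19:10270924-10270952, plus strand: gctttagcttGGAAATTCCggagctgaag

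The nearest decamers to a start began 21 bases upstream in NFKB2, 49 in NFKB1, 55 in TNFAIP3 and 81 in NFKBIA. In BIRC3 they began 135 and 199 bases upstream and in NFKBIZ 223. The NFKB2 window with the decamer 21 bases upstream held another site, beginning 176 bases upstream. Of the other 2 NFKB2 windows, 1 held none of the motifs. The last held a decamer beginning 78 bases upstream and the site below, in which decamers on both strands overlap.
NFKB2, chr10:102394462-102394490, plus strand: aaacgtcatGGGAATTCCCCcctccgggg

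ICAM1 had only the shorter GGAANTTCC, beginning 186 bases upstream, and neither RELA nor TNFAIP2 had any of the 3 motifs in these windows, which says nothing about sites elsewhere.

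**Figure D1:**
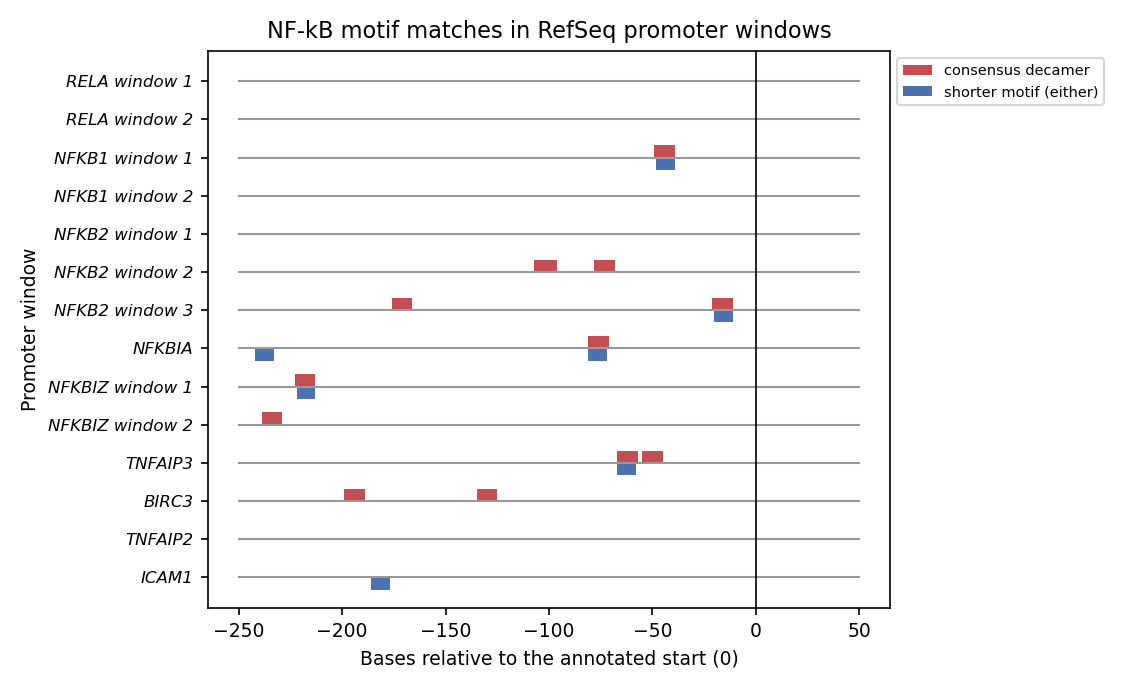
Positions of motif matches (x axis, bases relative to the annotated start at 0) in each RefSeq promoter window (y axis) of 9 genes. Red boxes above a line are the consensus decamer on either strand and blue boxes below it are either shorter motif; the windows of RELA and TNFAIP2 hold none.

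The comparison of shGLUD1 with shNT asks which of these transcripts differ between starved cells with and without the GLUD1 hairpin. On TPM, 8 of the 10 genes rose and none fell at an adjusted p under 0.05 (limma), with TNFAIP2, NFKBIA and BIRC3 rising most, while RELB and NFKBIZ did not pass. At an unadjusted p under 0.05 (limma), 1 of the 10, RELB, was lower, beside 1080 of all 12524 genes tested. Across all genes tested 56.7% were called higher and 7.77% lower, so most of the table lay higher in shGLUD1. The median log2 fold change was 1.03 over the 10 genes and 0.63 over all genes. TPM are shares of a fixed total, and a second scale was therefore used in which median-ratio rescaling of the libraries sets the typical gene to no change. On that scale 3 of the 10 rose (NFKBIA, BIRC3 and TNFAIP2), RELB fell and 6 did not pass, against 23.2% of all genes higher and 27.9% lower. The median was then 0.39 over the 10 genes and -0.0013 over all genes. Both counts rest on 10 genes chosen with earlier results of these data known, and nothing particular to the group is read from them.

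In single libraries, both shGLUD1 values lay above both shNT values in 8 of the 10 genes, as in 69.9% of all genes tested. RELB lay below, as did 13.5% of all genes, and the groups of NFKBIZ overlapped.

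**Figure D2:**
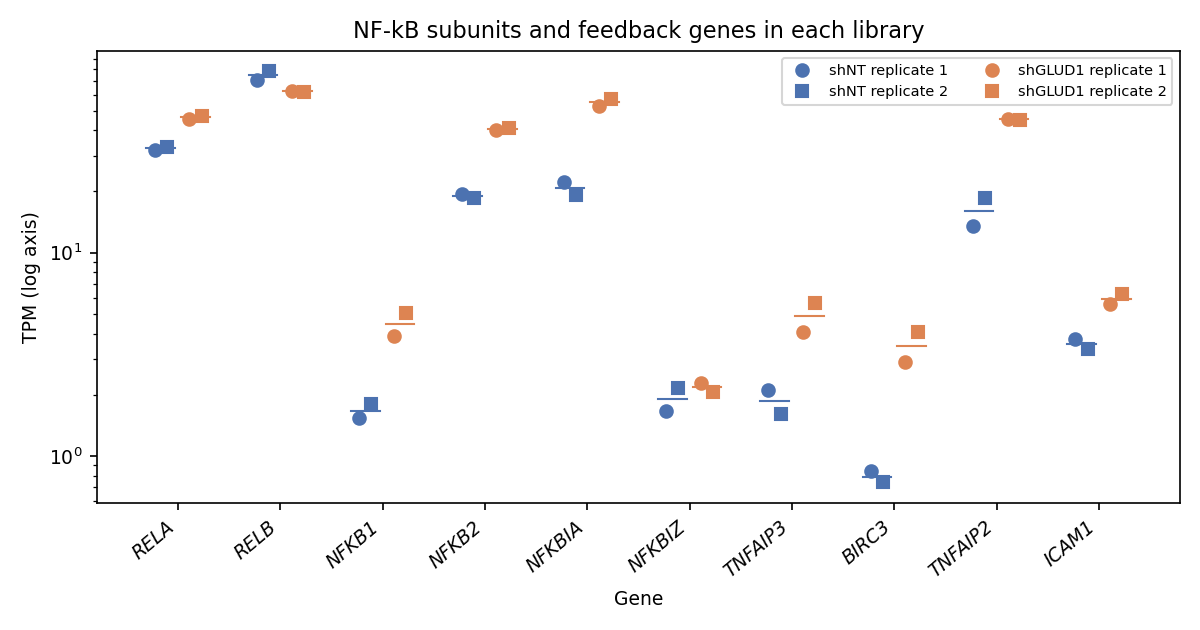
TPM of each gene (log axis) in the 2 shNT and 2 shGLUD1 libraries, with bars at the group means. RELB is the most abundant in both groups and the only 1 of the 10 with both shGLUD1 points below both shNT points.

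RELB, the transcriptionally active subunit of the alternative branch (ENSG00000104856, chr19:45001430-45038198, plus strand), measured 70.99 and 78.05 TPM (shNT) against 62.67 and 61.69 TPM (shGLUD1). Both shGLUD1 libraries were lower, by little. On the log2(TPM + 1) scale it differed by -0.26 (SE 0.11, 95% interval -0.51 to -0.0044, limma adjusted p = 0.069) and did not pass. Relative to the typical gene RELB fell, with a rescaled value of -1.01 (SE 0.12, limma adjusted p = 0.000434). With trends in transcript length and GC content removed the TPM value was 0.02 and the rescaled value was -0.68 (limma adjusted p = 0.00155).

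RELA, the p65 subunit that activates most canonical targets (ENSG00000173039, chr11:65653596-65663094, minus strand), measured 32.13 and 33.13 TPM (shNT) against 45.48 and 47.21 TPM (shGLUD1). The groups did not overlap and each pair of libraries lay close together. RELA rose on TPM (log2 fold change 0.49, SE 0.12, limma adjusted p = 0.00544) but by less than the median gene, and the rescaled value was -0.25 (95% interval -0.52 to 0.02, limma adjusted p = 0.107). Its TPM call was lost without shNT replicate 1 (0.47, limma adjusted p = 0.0573).

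The 2 precursor genes rose together on TPM. NFKB2 encodes p100, which is both the precursor of p52 and an inhibitor that retains RELB in the cytoplasm (ENSG00000077150, chr10:102394110-102402529, plus strand). It measured 19.52 and 18.61 TPM (shNT) against 40.15 and 40.85 TPM (shGLUD1). The separation was large against the spread within either group (log2 fold change 1.05, SE 0.14, limma adjusted p = 9.8e-05), and the rescaled value of 0.31 did not pass (95% interval 0.02 to 0.60 before adjustment, limma adjusted p = 0.0665). NFKB1 encodes p105, the precursor of p50 and likewise an inhibitor (ENSG00000109320, chr4:102501329-102617302, plus strand). It measured 1.54 and 1.79 TPM (shNT) against 3.88 and 5.03 TPM (shGLUD1), far below the other 3 subunit genes in both groups. Its log2 fold change, 1.03 ± 0.24 (SE), passed (limma adjusted p = 0.00385), and its rescaled value of 0.47 did not (95% interval 0.03 to 0.92 before adjustment, limma adjusted p = 0.071).

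NFKBIA encodes IkB-alpha, the inhibitor that is degraded on activation and resynthesised from an NF-kB-driven promoter (ENSG00000100906, chr14:35401511-35404749, minus strand). It measured 22.27 and 19.11 TPM (shNT) against 52.67 and 57.31 TPM (shGLUD1). Both shGLUD1 libraries lay far above both shNT libraries. NFKBIA rose on both scales, with a log2 difference of 1.37 ± 0.14 (SE, limma, adjusted p = 2.45e-05) on TPM and 0.63 (SE 0.13, limma adjusted p = 0.00403) after rescaling. Among the 10 genes it was the only one whose direction and call held in all 19 alternative settings, where its value ranged from 0.52 to 1.62.

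NFKBIZ encodes IkB-zeta, a nuclear IkB protein that acts as a co-activator of secondary response genes (ENSG00000144802, chr3:101827991-101861022, plus strand). It measured 1.67 and 2.15 TPM (shNT) against 2.28 and 2.07 TPM (shGLUD1), and the groups overlapped. The log2 fold change was 0.13 on TPM (SE 0.25, 95% interval -0.41 to 0.67, limma adjusted p = 0.657) and -0.38 after rescaling (95% interval -0.86 to 0.11, limma adjusted p = 0.166). A change of up to about the median shift of all genes is within the first interval.

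TNFAIP3 encodes A20, a ubiquitin-editing enzyme that shuts off signalling to the IkB kinases (ENSG00000118503, chr6:137867188-137883312, plus strand). It measured 2.11 and 1.6 TPM (shNT) against 4.07 and 5.67 TPM (shGLUD1). The groups did not overlap, although the shGLUD1 libraries differed from each other by more than the shNT libraries did. TNFAIP3 rose on TPM (log2 fold change 1.03, SE 0.25, limma adjusted p = 0.00451), but its rescaled value, 0.46, failed the test (limma adjusted p = 0.0887). The TPM call was lost without shNT replicate 2 (0.90, limma adjusted p = 0.0512). An antisense gene overlaps 95 exonic bases of TNFAIP3 and averaged 1.06 TPM, and whether counting used strand is not given in the sources used here, so their reads cannot be told apart. The same holds for ICAM1, which shares 815 and 61 exonic bases with antisense genes at 0.02 and 0.08 TPM.

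BIRC3 encodes cIAP2, a ubiquitin ligase of the TNF receptor complex that also limits the alternative branch by promoting turnover of the kinase NIK (ENSG00000023445, chr11:102317450-102339403, plus strand). It was at 0.84 and 0.74 TPM in shNT, the lowest of the 10 genes, and at 2.88 and 4.08 TPM in shGLUD1. BIRC3 rose on TPM (log2 fold change 1.31, SE 0.25, limma adjusted p = 0.00119) and after rescaling (0.84, SE 0.21, limma adjusted p = 0.0106). At such low levels the pseudocount of 1 TPM holds the fold change down, and with 0.1 TPM it was 1.99. The rescaled call was lost without shGLUD1 replicate 2 (0.71). GLUD1 was not lower on TPM in that library, and on the rescaled values GLUD1 was lower in shGLUD1 as a group (-0.83). These values differ in scale and in libraries, and a link between GLUD1 and the lost BIRC3 call was not tested.

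TNFAIP2, a TNF-inducible gene linked to actin protrusions (ENSG00000185215, chr14:103123442-103137439, plus strand), measured 13.55 and 18.54 TPM (shNT) against 45.39 and 45.08 TPM (shGLUD1). The controls differed from each other by several TPM while the shGLUD1 libraries nearly coincided. TNFAIP2 rose on both scales, with a TPM log2 difference of 1.46 ± 0.16 (SE, limma, adjusted p = 4.42e-05), and a rescaled value of 0.72 (SE 0.16, limma adjusted p = 0.00705). The rescaled call was lost without shGLUD1 replicate 1 (0.62, limma adjusted p = 0.0601).

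ICAM1, the adhesion molecule that binds leukocyte integrins (ENSG00000090339, chr19:10270835-10286615, plus strand), measured 3.74 and 3.35 TPM (shNT) against 5.59 and 6.27 TPM (shGLUD1). It rose on TPM (log2 fold change 0.61, SE 0.22, limma adjusted p = 0.0323) by about as much as the median gene, and the rescaled value was -0.02 (95% interval -0.42 to 0.38, limma adjusted p = 0.941). Its TPM call was lost without shNT replicate 1 (0.67, limma adjusted p = 0.149), without shNT replicate 2 (0.55, 0.236) and without shGLUD1 replicate 2 (0.54, 0.0795). It was also lost with no filter on low values (limma adjusted p = 0.0642) and with ribosomal protein genes left out (0.47, limma adjusted p = 0.0837).

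**Figure D3:**
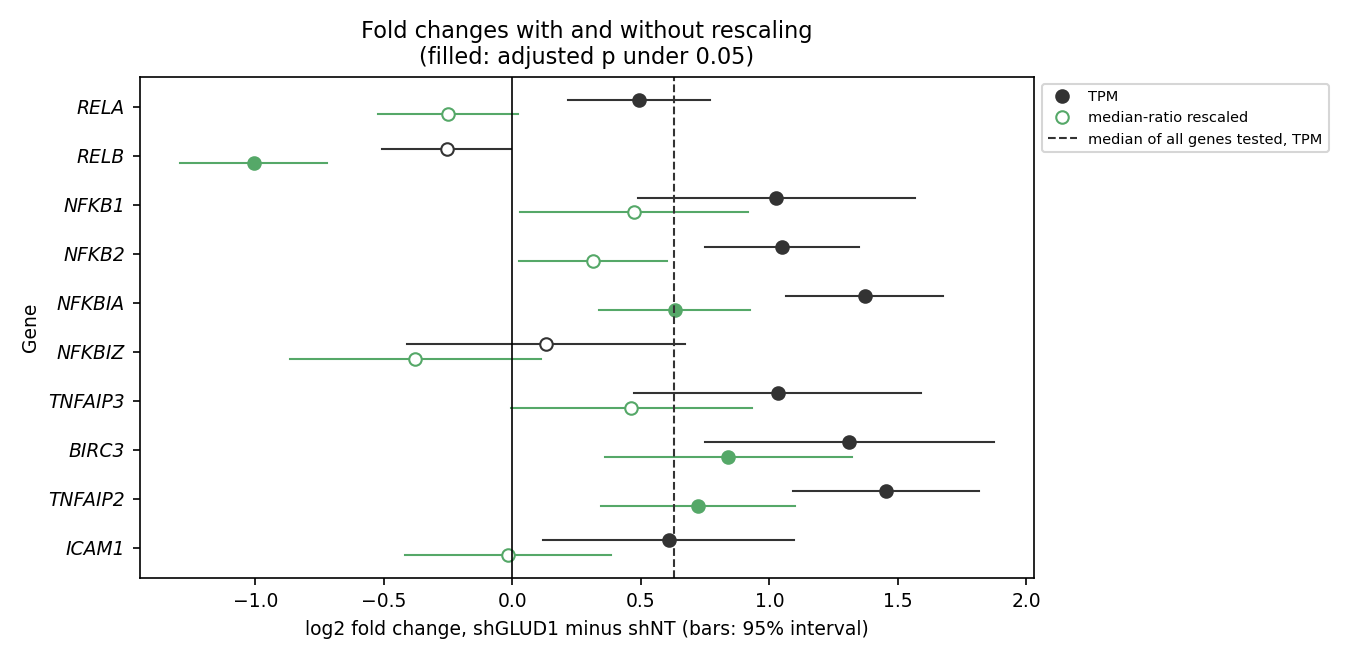
Log2 fold change (shGLUD1 minus shNT) of each gene on TPM (black) and after median-ratio rescaling (green), with 95% intervals. Filled points passed at an adjusted p under 0.05, and the dashed line marks the median of all genes on TPM, 0.63. NFKBIA, BIRC3 and TNFAIP2 are filled on both scales, and RELB only when rescaled.

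The order of levels changed within the set. In shNT the order of mean TPM was RELB (74.52), RELA (32.63), NFKBIA (20.69), NFKB2 (19.06), TNFAIP2 (16.04), ICAM1 (3.55), NFKBIZ (1.91), TNFAIP3 (1.85), NFKB1 (1.67) and BIRC3 (0.79). The library values of NFKBIA and NFKB2 overlapped, as did those of NFKBIZ and TNFAIP3 and of TNFAIP3 and NFKB1. In shGLUD1 NFKBIA (54.99) stood second, above RELA (46.34), TNFAIP2 (45.23) and NFKB2 (40.5), and NFKBIZ (2.17) came last. There, neighbours overlapped only from ICAM1 (5.93) down through TNFAIP3 (4.87), NFKB1 (4.46) and BIRC3 (3.48). TPM comparisons between genes assume that the authors' transcript lengths fit the isoforms present.

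Ratios between 2 genes in the same library do not depend on how libraries are scaled against each other, and 6 were taken. The NFKB2 to RELB ratio was 0.275 and 0.238 in shNT and 0.641 and 0.662 in shGLUD1. On the log2 scale it was -1.97 ± 0.15 in shNT and -0.62 ± 0.034 in shGLUD1 (SD, n = 2), a difference of 1.35. The 2 genes of the alternative pair therefore lay much closer in level in shGLUD1, with RELB still the higher. The RELB to RELA ratio was 2.21 and 2.36 in shNT and 1.38 and 1.31 in shGLUD1, a log2 difference of -0.77.

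The ratio of NFKBIA, the inhibitor, to RELA, the subunit it holds, was 0.693 and 0.577 in shNT and 1.16 and 1.21 in shGLUD1, a log2 difference of 0.91. NFKBIA was thus below RELA in both controls and above it in both shGLUD1 libraries. The NFKB1 to RELA ratio was 0.0479 and 0.054 in shNT and 0.0853 and 0.107 in shGLUD1, a log2 difference of 0.91. The NFKBIZ to NFKBIA ratio was 0.075 and 0.113 in shNT and 0.0433 and 0.0361 in shGLUD1, a log2 difference of -1.22.

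Only the TNFAIP3 to NFKBIA ratio overlapped between groups, at 0.0947 and 0.0837 in shNT and 0.0773 and 0.0989 in shGLUD1 (log2 difference -0.03). In an exact permutation test, both tails counted, of 2 against 2 libraries the other 5 ratios each gave p = 0.33, the smallest this design allows (0.4 after Benjamini-Hochberg adjustment over the 6), and TNFAIP3 to NFKBIA gave p = 1. The design cannot reach the threshold, and ratios that share a gene are not independent.

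**Figure D4:**
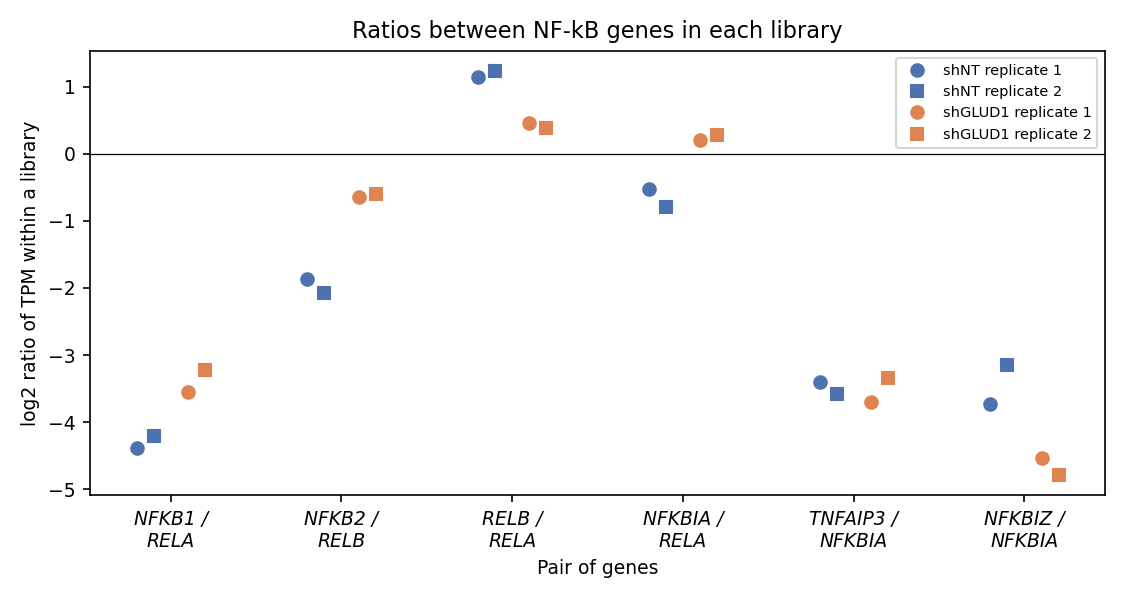
Log2 ratio of TPM between 2 genes within each library (y axis) for 6 pairs. NFKB2 to RELB, NFKB1 to RELA and NFKBIA to RELA lie higher in both shGLUD1 libraries, RELB to RELA and NFKBIZ to NFKBIA lower, and TNFAIP3 to NFKBIA overlaps.

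Beyond the 10, a list of 126 other NF-kB pathway genes held 97 that could be tested. On TPM 54 rose and 9 fell, and 34 did not pass, close to the shares of all genes (56.7% higher, 7.77% lower). On the rescaled values 19 rose and 36 fell, where 23.2% of all genes were higher and 27.9% lower. Those 4 shares are the background for each role below. Their median log2 fold change was 0.497 on TPM and -0.12 rescaled.

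Among the other subunits and IkB-type regulators, 7 of 8 were tested, of which 4 rose and 1 fell on TPM and 2 rose and 2 fell rescaled. REL, the c-Rel subunit of lymphoid cells, was at 0.15 to 0.48 TPM in the 4 libraries and was not tested. BCL3, a nuclear IkB protein that works with p50 and p52, measured 5.06 and 5.8 TPM (shNT) against 17.56 and 14.53 TPM (shGLUD1), and rose on both scales (log2 fold change 1.40, rescaled 0.72). NFKBID, another nuclear IkB protein, measured 0.65 and 0.71 TPM (shNT) against 4.81 and 3.88 TPM (shGLUD1), and rose on both scales (1.66, rescaled 1.20). Like BIRC3 it met the 1 TPM minimum only through shGLUD1, and with a pseudocount of 0.1 TPM its value was 2.50. In contrast to NFKBIZ, both of these nuclear IkB genes had both shGLUD1 libraries above both shNT libraries, as did 69.9% of all genes tested.

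NFKBIE, the gene of the cytoplasmic inhibitor IkB-epsilon, measured 25.19 and 24.29 TPM (shNT) against 43.77 and 51.46 TPM (shGLUD1). It rose on TPM (0.91) but its rescaled value, 0.17, failed the test. NFKBIB, the gene of IkB-beta, measured 50.26 and 52.93 TPM (shNT) against 40.16 and 46.31 TPM (shGLUD1). Its TPM value of -0.25 did not pass (limma adjusted p = 0.102), and it fell after rescaling (-0.9991, limma adjusted p = 0.000292). On TPM it was also called lower with ribosomal protein genes left out (-0.44, limma adjusted p = 0.0122) and without shGLUD1 replicate 2 (-0.35, limma adjusted p = 0.0468), and it was -0.0015 with length and GC trends removed. Of the 3 classical cytoplasmic IkB genes, after rescaling NFKBIA rose, NFKBIB fell and NFKBIE did not pass. NFKBIL1 fell on both scales (-0.72, rescaled -1.47), but with length and GC trends removed its TPM value was -0.29 and the call was lost (limma adjusted p = 0.0667). COMMD1, which promotes turnover of nuclear RELA, rose on TPM (0.82, rescaled 0.07, not passed), and PPP1R13L, which binds RELA, passed on neither scale (0.24, rescaled -0.20).

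Of 13 kinases, 8 rose and none fell on TPM, with 3 higher and 4 lower rescaled, counts near the background (56.7% and 7.77%, rescaled 23.2% and 27.9%). The kinases, the adaptors and the ligands also had 0 genes lower on TPM at an unadjusted p under 0.05 (limma). Of all 12524 genes tested, 1080 were lower at that threshold, and with so few genes per role a count of 0 says little. RIPK2, which signals from NOD receptors, rose from 7.9 ± 0.23 TPM to 21.3 ± 4.6 TPM (SD, n = 2, log2 fold change 1.31, rescaled 0.60). MAP3K3 rose by 1.24 (rescaled 0.57). It averaged 4.88 TPM in shNT, so, like MAP3K14 below, it met the 5 TPM minimum for being named only through shGLUD1. MAP3K14, which encodes NIK, the kinase of the alternative branch, rose on TPM from 4.56 ± 0.099 TPM to 8.62 ± 0.56 TPM (0.79), but its rescaled value, 0.13, failed the test. Without shNT replicate 1 (0.77, limma adjusted p = 0.0727) or shNT replicate 2 (0.81, limma adjusted p = 0.0551) its TPM call was lost. The IkB kinase genes were named after their values were seen. CHUK measured 1.78 and 2.03 TPM (shNT) against 3.66 and 4.96 TPM (shGLUD1) and rose on TPM (0.86, limma adjusted p = 0.0103, rescaled 0.30, not passed). IKBKB (0.42) and IKBKG (0.17) did not pass on TPM, and IKBKG fell after rescaling (-0.58, limma adjusted p = 0.00528).

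Of 29 adaptors and ubiquitin-system genes 25 were tested, and 17 rose and none fell on TPM, beside 56.7% and 7.77% of all genes, with 7 higher and 6 lower rescaled, near the 23.2% and 27.9% of all genes. TAB2, which tethers the TAK1 kinase to ubiquitin chains, rose from 3.08 ± 0.28 TPM to 15.0 ± 3.3 TPM (SD, n = 2, log2 fold change 1.96, rescaled 1.30). CUL1, the scaffold of the ligase that marks IkB proteins for destruction, rose from 4.34 ± 0.59 TPM to 17.5 ± 3.2 TPM (1.78, rescaled 1.11). RNF11, a partner of A20, rose by 1.33 (rescaled 0.60). TAB2 and CUL1 averaged under 5 TPM in shNT, so each met the minimum for being named only through shGLUD1.

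Of 18 receptors 11 were tested, with 4 higher and 1 lower on TPM and 2 higher and 3 lower rescaled. Both TNF receptors rose. TNFRSF1A measured 15.53 and 14.99 TPM (shNT) against 45.03 and 53.22 TPM (shGLUD1) (log2 fold change 1.62, rescaled 0.89, limma adjusted p = 1.32e-05 and 0.000609). TNFRSF1B measured 8.0 and 7.97 TPM (shNT) against 31.16 and 33.42 TPM (shGLUD1) (1.89, rescaled 1.18). TNFRSF12A, the receptor of TWEAK and an input to the alternative branch, moved the other way. It measured 779.8 and 805.68 TPM (shNT) against 314.21 and 285.4 TPM (shGLUD1), and fell on both scales (-1.40, rescaled -2.16). CD40 rose on TPM (0.67) and had a rescaled value of -0.02, and its TPM call was lost without shNT replicate 1 (0.49, limma adjusted p = 0.21) or shGLUD1 replicate 1 (0.63, limma adjusted p = 0.057), with no filter on low values (limma adjusted p = 0.0569) and with ribosomal protein genes left out (0.51, limma adjusted p = 0.0508).

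Of 12 ligands only 4 were tested, with 2 higher and none lower on TPM and 1 higher and 2 lower rescaled. IL1B, an inducer and a target of NF-kB, rose from 20.6 ± 1.3 TPM to 54.7 ± 2.4 TPM (SD, n = 2, log2 fold change 1.37, rescaled 0.63). TNFSF12, which encodes TWEAK, rose on TPM (0.56, rescaled -0.15, not passed), and its TPM call was lost without any 1 of 3 libraries (adjusted p = 0.0897 without shNT replicate 1, 0.16 without shNT replicate 2 and 0.0501 without shGLUD1 replicate 1) and with ribosomal protein genes left out (0.39, limma adjusted p = 0.0711). TNF, named after its values were seen, measured 1.24 and 1.18 TPM (shNT) against 0.3 and 0.71 TPM (shGLUD1), below the minimum for a test.

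Among 46 targets, 37 were tested: 19 rose and 7 fell on TPM, beside 56.7% and 7.77% of all genes, and 4 rose and 19 fell rescaled, beside 23.2% and 27.9%, with a median of 0.34 on TPM and -0.34 rescaled. The largest falls were in secreted cytokines. CXCL8, the neutrophil chemokine listed as IL8, measured 557.52 and 510 TPM (shNT) against 120.31 and 140.85 TPM (shGLUD1) (log2 fold change -2.03, rescaled -2.78, limma adjusted p = 5.27e-07 and 3.43e-06). CXCL3, a related chemokine, fell from 24.2 ± 0.35 TPM to 6.29 ± 1.2 TPM (-1.80, rescaled -2.49). IL6 fell from 55.3 ± 7.4 TPM to 24.3 ± 7.4 TPM (-1.18, rescaled -1.92). In each of these 3 genes both shGLUD1 libraries lay below both shNT libraries, as in 13.5% of all genes tested. They were named for the largest falls, so this order follows from the choice. NFKBIA, TNFAIP3 and BIRC3 had the opposite order, as did 69.9% of all genes tested.

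KLF6, a zinc-finger transcription factor, rose from 2.56 ± 0.092 TPM to 10.9 ± 2.4 TPM (SD, n = 2, log2 fold change 1.73, rescaled 1.10). C3, the central complement component, rose from 45.5 ± 3.6 TPM to 125 ± 6.5 TPM (1.44, rescaled 0.69). BCL2L1, which encodes the survival protein BCL-xL, rose from 63.0 ± 0.13 TPM to 149 ± 14.1 TPM (1.22, rescaled 0.47). These rises passed the limma test on both scales.

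**Figure D5:**
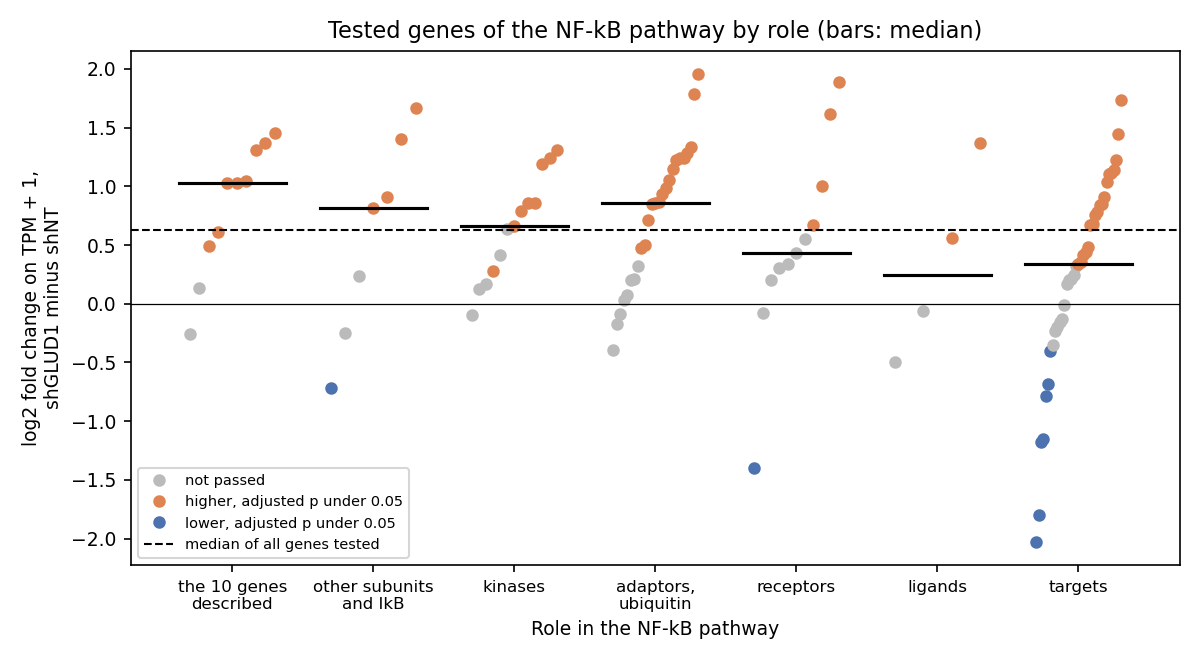
Log2 fold change on TPM + 1 (y axis) of the 10 genes and of 97 other tested pathway genes by role, coloured by call, with bars at each median and a dashed line at the median of all genes, 0.63. The targets span the widest range, from -2.03 (CXCL8) to 1.73 (KLF6).

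Promoter matches were set beside the fold changes as a description, without a test. Of 8425 tested genes with a promoter window, 1466 had the consensus decamer. Their median log2 fold change was 0.75 on TPM, against 0.69 for all 8425, and 64.7% were called higher against 61.5%. The rescaled medians were 0.11 and 0.05. Within the 10 genes, NFKBIZ had decamers in both of its windows and did not pass, while TNFAIP2, which rose on both scales, had none in its window. Of the tested targets with the decamer, CXCL3, IL6 and IL32 fell on TPM. CFLAR, CXCL1 (1.11, limma adjusted p = 0.00177, rescaled 0.48, not passed), SDC4, IRF1, PANX1 and TAP1 rose on TPM. CXCL2, CXCL10, PTX3, CD83 and LCN2 did not pass on TPM, and none of these targets was called higher after rescaling. CXCL8, which fell, had no decamer in a window. Apart from CXCL3, IL6 and CXCL8, these targets were named after their values were seen. CXCL1 and CXCL3 are close paralogs, so reads may be split between them. Genes with the letters of a kB site thus lay on both sides.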

How the data were processed

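The authors deposited 1 table of TPM values with 57820 genes and 1 column per library, written to 2 decimals and summing to 1000000 in each. Per the labels, TruSeq V2 libraries were prepared, each with 1 µg total RNA as input. Per the submitters' processing notes, the aligner Bowtie (0.12.2) is named, as are hg38 and mm8, with no role for either build. How TPM were quantified, on which annotation and with which strand setting is not given in the sources used here. Since TPM hold no read totals, no counting interval is possible.

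Values were analysed as log2(TPM + 1), keeping genes that averaged 1 TPM or more, with limma 3.58.1 in R 4.3.3 (eBayes with a variance trend, hairpin as the only term, all 4 libraries), both directions tested, Benjamini-Hochberg adjusted over 12524 genes, threshold 0.05. The fit was also run on simulated libraries with few changed genes, in both directions, and no general shift between groups. That setting differs from the data here, so the run says nothing about calls under such a shift. Rescaled values divide each library by its median-ratio factor (log2 -0.38 and -0.37 for shNT, 0.29 and 0.495 for shGLUD1). Coordinates come from GENCODE release 29 on GRCh38, matched by identifier. Promoter windows are RefSeq's (GRCh38.p14). Python 3.11.15 with pandas 2.3.3 and matplotlib 3.10.9 made tables and figures.

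The 10 genes, the pathway lists and the tests were chosen with earlier results of these data known. Named pathway genes are, per role, up to 3 called higher and up to 3 called lower with the largest change and a mean of at least 5 TPM, and every tested subunit or inhibitor. KLF6, TAB2, CUL1, MAP3K3 and MAP3K14 reached that mean only through shGLUD1, so for them the rule itself favoured a rise. Genes outside that rule are said to be. Alternatives are listed in the closing section.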

Additional observations from a re-analysis of the deposited data

How the results depend on the processing

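Direction depended on scaling. Genes higher among the 10 numbered 8 on TPM, 3 after median-ratio rescaling, 4 under quantile normalization, 4 with rescaling and length and GC trends removed together, and 4 at a mean of at least 5 TPM, where only 5 of the 10 were tested. Genes lower numbered 0 on TPM (limma), 1 (RELB) after rescaling, under quantile normalization and with ribosomal protein genes left out, and 2 with rescaling and trends removed together. Pathway genes higher numbered 54 on TPM, 19 rescaled, 22 under quantile normalization and 17 with rescaling and trends removed. Those lower numbered 9, 36, 24 and 35, and 17 with ribosomal protein genes left out. Leaving out each library in turn gave 6 to 8 of the 10 higher and none lower on TPM, and 2 or 3 higher and 1 lower rescaled. For pathway genes it gave 39 to 54 higher and 7 to 10 lower on TPM, and 15, 15, 12 and 11 higher and 26, 28, 34 and 26 lower rescaled (without shNT replicates 1 and 2 and shGLUD1 replicates 1 and 2, in that order here and below). Of all genes, 8078 changed on TPM, 6240 to 8167 with each library left out, and 5297, 5294, 5392 and 4372 with rescaling as well.

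RELA reversed after rescaling (-0.25, and -0.27, -0.23, -0.32 and -0.16 with each library left out, -0.20 with trends removed). NFKBIZ reversed after rescaling (-0.38, and -0.52, -0.26, -0.47 and -0.25 with each library left out, -0.65 with trends removed, limma adjusted p = 0.0383), under quantile normalization (-0.53) and with trends alone removed (-0.14). ICAM1 reversed after rescaling (-0.017) and under quantile normalization (-0.16), and was 0.049, -0.088, -0.030 and 0.009 rescaled with each library left out. RELB was 0.023 with trends removed. Of the named pathway genes, PPP1R13L (-0.20 and -0.39), CD40 (-0.016 and -0.081) and TNFSF12 (-0.15 and -0.15) reversed after rescaling and quantile normalization. GLUD1 was 0.15 without shGLUD1 replicate 1 and -0.37 without shGLUD1 replicate 2. The log2 difference in the TNFAIP3 to NFKBIA ratio changed sign without shNT replicate 1 (0.06) and without shGLUD1 replicate 1 (0.15). It kept its sign without shNT replicate 2 (-0.12) and without shGLUD1 replicate 2 (-0.20). The other 5 ratios kept theirs with each library left out and with pseudocounts of 0.1 and 1 TPM. Ratios were not recomputed with length and GC trends removed. Sizes moved with a pseudocount of 1 TPM, where the NFKB1 to RELA difference was 0.53 and the TNFAIP3 to NFKBIA difference -0.34. The cause of these changes was not tested.

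With the replicate number as a block, 8 of the 10 and 55 pathway genes were higher, none and 9 lower, and 8456 of all genes changed, so no call among the 10 changed. Same-numbered libraries did not deviate together (r = 0.039 across genes). With 2 libraries per group this cannot show whether the numbers pair the samples. With 1 library left out, its group's lone library is assumed to vary like the other group. Removal of length and GC trends, protein-coding genes only, and the settings that pair rescaling with another choice were added after seeing the data. Depth is unknown, so no detection limit is given for genes near 0.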
